A study of Homo sapiens with 6 samples.

Results

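Selected HLA class II genes, their invariant chain CD74 and the regulators CIITA and RFX5 were compared between UBE2S knockdown and control cells. The cells were A375, an established human melanoma line. HLA-DQA1, HLA-DQB1, HLA-DRB1, HLA-DRB4, HLA-DRB5 and HLA-DPB2 also had probe sets with unshared array annotation. They were not in the set and are described further below. The 10 genes were chosen by symbol: a probe set counted when the array annotation gave it exactly 1 gene symbol and that symbol was HLA-DRA, HLA-DPA1, HLA-DPB1, HLA-DMA, HLA-DMB, HLA-DOA, HLA-DOB, CD74, CIITA or RFX5. They were represented by 47 of 49293 probe sets, and by 10 of 18132 genes. The knockdown group was 3 biological replicates of A375 cells that carried a lentivirally delivered short hairpin RNA against UBE2S, an E2 enzyme that lengthens ubiquitin chains for the anaphase-promoting complex. The control group was 3 biological replicates of A375 cells, and their treatment, the hairpin sequence, the time after transduction and whether clones were picked are not stated in the labels. Total RNA of each replicate was hybridized to 1 Affymetrix array. Nothing in the labels says which replicates shared a culture or a day, so the spread between arrays may be partly technical.

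Class II molecules are heterodimers on the cell surface that show peptides from endosomes to CD4 T cells. They are made in the endoplasmic reticulum with CD74, which blocks the peptide groove and is cut down to a short stub in endosomes; HLA-DM then exchanges the stub for peptide and HLA-DO restrains HLA-DM. Transcription of most class II genes and of CD74 relies at least in part on CIITA, a coactivator that does not bind DNA itself. CIITA docks on the RFX complex (RFX5, RFXAP and RFXANK) at the X box and on NF-Y at the Y box of the promoters. Interferon gamma induces CIITA in many cell types, and some melanomas make class II molecules although they are not professional antigen-presenting cells.

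The promoters are shown because the X and Y boxes are where CIITA is recruited. CIITA and the class II chains were both lower in knockdown cells, and whether one follows from the other was not tested. RefSeq promoter windows (GRCh38.p14, 250 bases before to 50 after an annotated start) were matched for 8 of the 10 genes, in 11 windows. Bases -140 to -31 before the start are printed 5′ to 3′ on the strand of the gene, which is the minus strand for all but HLA-DPB1. Of the HLA-DPA1 windows, the one nearest to HLA-DPB1 is printed. Capitals mark an X-box-like pattern, AGNNNCNGA, or the Y-box core CCAAT, each searched on both strands (ATTGG is CCAAT on the other strand). The patterns overlapped in 2 of the 11 windows, at places not printed. The windows are chr6:33073680-33073789 for HLA-DPA1, chr6:33075850-33075959 for HLA-DPB1, chr6:32953128-32953237 for HLA-DMA, chr6:32941059-32941168 for HLA-DMB, chr6:33009622-33009731 for HLA-DOA, chr6:32817033-32817142 for HLA-DOB and chr5:150412941-150413050 for CD74.
HLA-DPA1: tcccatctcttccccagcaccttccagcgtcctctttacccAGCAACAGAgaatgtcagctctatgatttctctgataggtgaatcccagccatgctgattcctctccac
HLA-DPB1: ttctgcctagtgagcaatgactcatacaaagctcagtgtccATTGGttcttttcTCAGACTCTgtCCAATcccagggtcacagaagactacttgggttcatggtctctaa
HLA-DMA: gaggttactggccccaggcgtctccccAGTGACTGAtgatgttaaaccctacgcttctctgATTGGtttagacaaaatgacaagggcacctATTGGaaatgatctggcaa
HLA-DMB: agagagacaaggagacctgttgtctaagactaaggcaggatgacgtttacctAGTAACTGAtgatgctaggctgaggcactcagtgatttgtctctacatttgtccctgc
HLA-DOA: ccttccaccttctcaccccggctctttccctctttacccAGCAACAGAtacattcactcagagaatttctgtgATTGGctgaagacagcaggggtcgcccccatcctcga
HLA-DOB: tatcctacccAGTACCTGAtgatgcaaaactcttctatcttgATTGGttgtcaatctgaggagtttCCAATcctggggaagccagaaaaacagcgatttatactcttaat
CD74: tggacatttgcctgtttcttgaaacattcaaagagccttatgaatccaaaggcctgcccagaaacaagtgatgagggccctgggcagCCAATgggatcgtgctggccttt
The X-box-like pattern began at -99 in HLA-DPA1, -86 in HLA-DPB1 (on the other strand), -113 in HLA-DMA, -88 in HLA-DMB, -101 in HLA-DOA and -130 in HLA-DOB, and these letters were not found in the window of CD74. The pattern was written after reading these promoters and is loose: 8 of the 11 windows held it, and so did 54.1% of all 35116 RefSeq windows. CCAAT on either strand was present in 7 of the 11 windows, and in 34.6% of all windows. Both patterns stood together in 6 of the 11 windows and in 18.5% of all windows. The match is a description of letters, shows no binding and need not mark the X box itself. In HLA-DPB1 the X-box-like letters lay between CCAAT matches at -99 and -75. In HLA-DMA, HLA-DOA and HLA-DOB the printed ones came before the CCAAT matches. Whether the letters marked in HLA-DPB1 are its X box was not tested.

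All values are expression on a log scale, read as base 2 from the RMA that the submitters' processing notes name, since the base itself is not stated. Percentages of the control signal rest on that reading. In the deposited values every probe set has a median of 0 over the 6 arrays, so arrays can be compared within a probe set while its level is unknown. A gene's value is the mean of its probe sets. UBE2S itself stood at -1.13, -1.05 and -1.01 in knockdown arrays, against 1.06, 1.01 and 1.01 in control arrays. The log2 difference was -2.09 (SE 0.04), which is 23.5% of the control signal. The 6 arrays had SDs between 0.174 and 0.183 on this scale, and array number limits the precision. In bulk RNA, fewer cells making a transcript and less transcript per cell cannot be told apart. Of 9 measured melanocyte markers, 2 (S100B and SOX10) had probe sets in the highest of 3 coarse signal classes, which are explained beside the probe sets, and 1 (TYRP1) had none above the lowest. Of 14 measured markers of antigen-presenting and other blood cells, 2 (ITGAX and CD80) had probe sets in the highest class, 3 (PTPRC, MS4A1 and CD14) had none above the lowest, and the other 9 reached the middle class. A class is no detection call.

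Class II transcripts were lower in knockdown cells in all 7 class II chains of the set, in CD74 and in CIITA, but not in RFX5. At the gene level 9 of the 10 were lower with an adjusted p under 0.05 in limma, where 18.6% of all genes were, and 0 were higher, where 21.4% of all genes were (0 higher and 9 lower at an unadjusted p under 0.05). Groups did not overlap for 9 genes that were lower, against 23.9% of all genes, and for 1 that was higher, against 26.2%. The median log2 difference, knockdown minus control, was -0.38 for the 10 genes and -0.0038 for all genes. The set was taken up with the results of this contrast known, so these counts and the values that follow are a description and no p-value is given for the 10 genes.

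**Figure D1:**
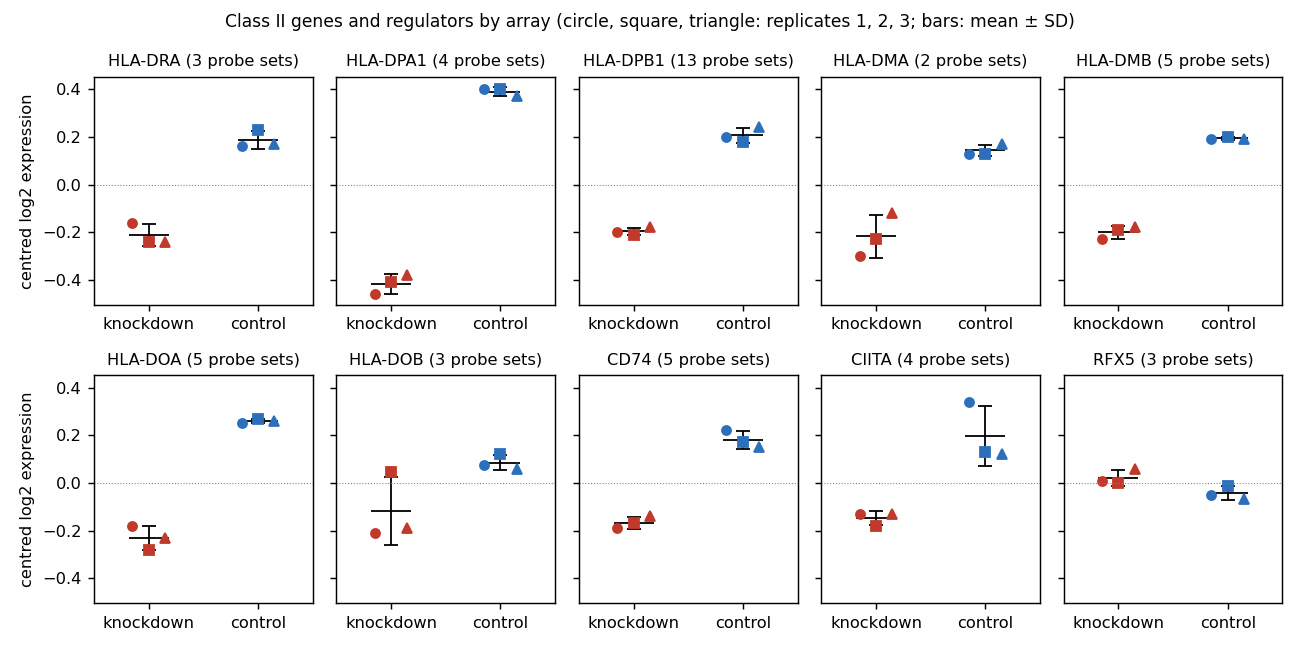
Centred log2 expression (vertical axis) of each of the 10 genes in the 3 knockdown arrays (red, left) and 3 control arrays (blue, right), with the mean and SD in black. All 3 knockdown arrays lie below all 3 control arrays in every panel except RFX5, and the gap is widest for HLA-DPA1 and narrowest, among the 9 lower genes, for HLA-DOB.

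The classical chains form the peptide-presenting pairs. HLA-DPA1, the alpha chain of HLA-DP, had -0.46, -0.41 and -0.38 in knockdown arrays, against 0.40, 0.40 and 0.37 in control arrays. Its mean was -0.41 ± 0.04 in knockdown cells and 0.39 ± 0.02 in control cells (SD, n = 3 each), a difference of -0.81 (SE 0.04), or 57.1% of the control signal. It was the lowest of the 10 genes, and 0.899% of all genes had a lower difference. HLA-DPB1, the beta chain of the same pair, had -0.20, -0.21 and -0.18 in knockdown arrays, against 0.20, 0.18 and 0.24 in control arrays. The difference was -0.40 (SE 0.04), smaller than that of its partner chain, and the groups were far apart relative to their SDs of 0.018 and 0.031. HLA-DRA, the nearly invariant alpha chain of HLA-DR, had -0.16, -0.24 and -0.24 in knockdown arrays, against 0.16, 0.23 and 0.17 in control arrays. The difference was -0.40 (SE 0.04), or 75.9% of the control signal, next to 75.7% for HLA-DPB1.

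The peptide editors showed differences of like size, with 1 exception. HLA-DMA, the alpha chain of HLA-DM, had -0.30, -0.23 and -0.12 in knockdown arrays, against 0.13, 0.13 and 0.17 in control arrays, a difference of -0.36 (SE 0.05). Knockdown replicate 3 was the nearest of its group to the control arrays. HLA-DMB, the beta chain, had -0.23, -0.19 and -0.18 in knockdown arrays, against 0.19, 0.20 and 0.19 in control arrays, a difference of -0.39 (SE 0.04). The DM chains thus stood at 78% and 76.1% of the control signal. HLA-DOA, the alpha chain of HLA-DO, had -0.18, -0.28 and -0.23 in knockdown arrays, against 0.25, 0.27 and 0.26 in control arrays, a difference of -0.49 (SE 0.04). HLA-DOB, its beta chain, had -0.21, 0.047 and -0.19 in knockdown arrays, against 0.074, 0.12 and 0.06 in control arrays. Knockdown replicate 2 lay next to the lowest control array, and the difference of -0.20 (SE 0.07) was the smallest of the 9. Its call was lost under 8 of 15 alternatives, among them leaving out any array except knockdown replicate 2, with differences between -0.21 and -0.15 under these 8.

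CD74, the invariant chain, had -0.19, -0.17 and -0.14 in knockdown arrays, against 0.22, 0.17 and 0.15 in control arrays. The difference was -0.35 (SE 0.04), or 78.6% of the control signal. CIITA, the class II coactivator, had -0.13, -0.18 and -0.13 in knockdown arrays, against 0.34, 0.13 and 0.12 in control arrays. The difference was -0.35 (SE 0.06), or 78.5% of the control signal, and control replicate 1 stood above the other control arrays. RFX5, the DNA-binding subunit of the RFX complex, had 0.0076, -0.0021 and 0.06 in knockdown arrays, against -0.051, -0.011 and -0.067 in control arrays. The groups did not overlap, yet the difference of 0.065 (SE 0.04) did not pass the threshold, and it was -0.10 when arrays were centred on hybridization spike-ins and -0.033 on poly-A ones.

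In order of their differences, the genes ran from HLA-DPA1 (-0.81) over HLA-DOA (-0.49), HLA-DRA and HLA-DPB1 (-0.40 each), HLA-DMB (-0.39), HLA-DMA (-0.36), CIITA and CD74 (-0.35 each) and HLA-DOB (-0.20) to RFX5 (0.065). The neighbours between HLA-DRA and CD74 lay within 0.05 of each other, about the size of their SEs. The gaps on either side of HLA-DOA, that between CD74 and HLA-DOB and that between HLA-DOB and RFX5 were larger than the SEs.

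Probe sets of a gene did not all move alike. Of the 47 probe sets, 33 were lower with an adjusted p under 0.05, where 17.4% of all probe sets were, 0 were higher, where 19.5% were (1 at an unadjusted p under 0.05), and 14 were not called. The groups did not overlap for 35 that were lower (23.3% of all probe sets) and 1 that was higher (25% of all). A coarse signal class can be read from the rounding of the deposited values, which depends on the size of a value before centring: high for log2 signals of roughly 8 and above, middle for 4 to 8 and low for 2 to 4. Of 23 background control probe sets of the array, 4 were high, 6 middle and 13 low, so no class shows that a transcript was present. In the high class 21 of 25 probe sets were called lower, and the median difference was -0.50. The middle class gave 12 of 16 with a median of -0.39, and the low class 0 of 6 with a median of -0.11 (0 also at an unadjusted p under 0.05). Among all probe sets, 29.4% of the high, 16.3% of the middle and 4.29% of the low class were called lower.

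**Figure D2:**
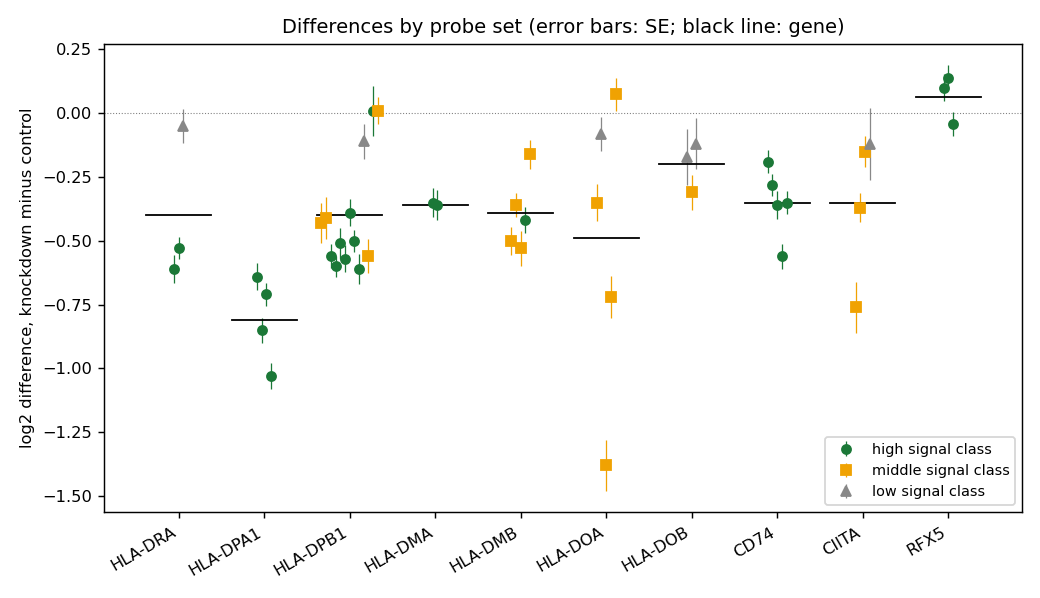
Log2 difference, knockdown minus control (vertical axis), of each of the 47 probe sets, by gene, with SE bars, coloured by signal class, and the gene value as a black line. Low-class probe sets (grey triangles) lie closest to 0 in HLA-DRA, HLA-DOB and CIITA, but not in HLA-DPB1 and HLA-DOA. The other genes have none. HLA-DOA spans the widest range, from -1.38 to 0.074.

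For HLA-DRA the high-class probe sets gave -0.61 and -0.53, while the low-class one gave -0.05 (SE 0.07), so the gene value understates what its brighter probe sets show. The 4 probe sets of HLA-DPA1 were all of the high class and ran from -1.03 to -0.64. For HLA-DPB1, 10 of 13 were called lower, and the others stood at -0.11, 0.0093 and 0.0098. The 5 probe sets of HLA-DOA gave -1.38, -0.72, -0.35, -0.081 and 0.074, and without the first of these the gene value was -0.27. All 5 probe sets of CD74 were of the high class and were called lower, from -0.56 to -0.19. For CIITA the probe sets gave -0.76, -0.37, -0.15 and -0.12, of which the first and second were called, none of them was of the high class, and the gene value without the first was -0.21. The 3 probe sets of RFX5, all of the high class, gave 0.14, 0.10 and -0.044. Of the 47 probe sets, 27 are of the _x_at and _s_at kinds that the array marks as able to read related transcripts. Without them HLA-DPA1 has no value, HLA-DRA rests on its low-class probe set alone (-0.05) and HLA-DOB stood at -0.15, neither of them called. The other 6 genes were still called lower, among them CD74 at -0.56, HLA-DMB at -0.51, CIITA at -0.34 and HLA-DPB1 at -0.27.

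The alpha chain of HLA-DQ and the beta chains of HLA-DR and HLA-DQ, which are polymorphic, were looked at after the values of the 10 genes had been seen. HLA-DRB1, the main DR beta chain, stood at -0.31, -0.30 and -0.25 in knockdown arrays, against 0.27, 0.25 and 0.26 in control arrays, a difference of -0.55 (SE 0.04). HLA-DQA1 gave -0.33 (SE 0.04), with 4 probe sets between -1.06 and 0.12, of which 2 were called lower. HLA-DRB4 gave -0.32 (SE 0.03), HLA-DQB1 -0.13 (SE 0.04, with 2 of 8 probe sets called lower) and HLA-DRB5 -0.21 (SE 0.08). HLA-DRB1, HLA-DQA1, HLA-DRB4 and HLA-DQB1 were called lower. HLA-DRB5 was not called, and its groups overlapped. HLA-DRB1, HLA-DRB4 and HLA-DRB5 rest on 1 probe set each. Without the _x_at and _s_at kinds HLA-DQB1 stood at -0.076. The pseudogene HLA-DPB2, read by 1 low-class probe set, was called higher at 0.15 (SE 0.05), and stood at -0.018 once arrays were centred on hybridization spike-ins. A further 9 probe sets are annotated to several DR or DQ genes and ran from -0.89 to 0.004. The groups did not overlap for 5 of the 9, all lower in knockdown, as for 23.3% of all probe sets. Probe sets of these genes can read each other's transcripts, so the genes cannot be told apart with certainty.

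**Figure D3:**
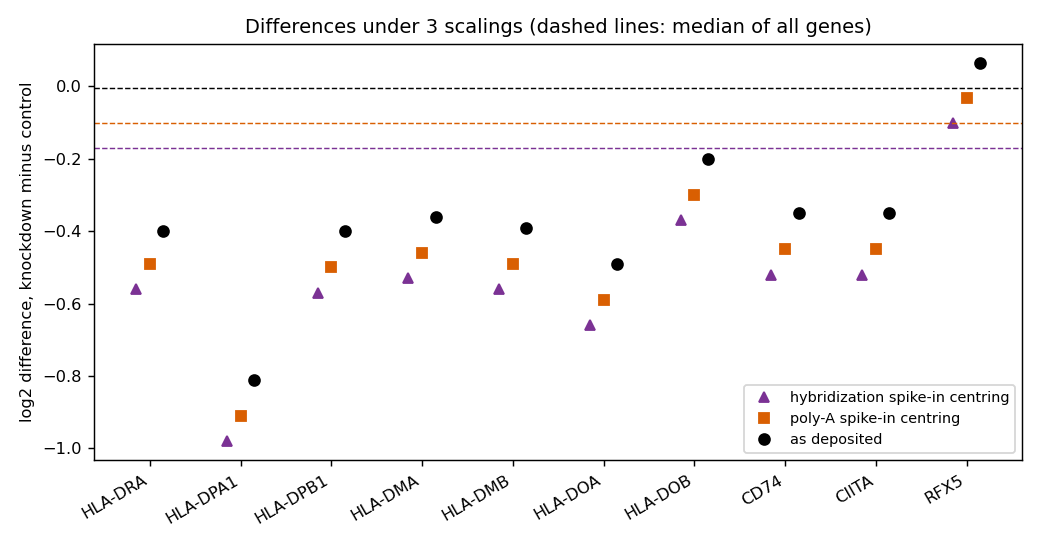
Log2 difference, knockdown minus control (vertical axis), of the 10 genes with the deposited scaling (black circles) and with the arrays centred on poly-A (orange squares) or hybridization (purple triangles) spike-in probe sets; dashed lines mark the median of all genes under each. Centring moves every gene and the median by the same amount, so the distance of each gene from the median is the same under all 3 scalings by construction.

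The scaling moved all values together. Hybridization spike-in probe sets were 0.168 higher in knockdown arrays and poly-A ones 0.0978 higher, and centring on them moved the median of all genes to -0.17 and -0.10. Of all 18132 genes, 9196 were called lower with hybridization centring and 6297 with poly-A centring, against 3378 with the deposited scaling. Counts of falls in the lists below under these centrings are to be read beside these numbers. With hybridization centring HLA-DPA1 stood at -0.98, HLA-DRA at -0.56, CD74 at -0.52 and CIITA at -0.52. The deposited scaling gives the smallest differences of the 3 for these genes. The 3′ to 5′ signal difference of the ACTB control probe sets exceeded that of control arrays by 0.191 in knockdown arrays, with separate groups, and that of GAPDH by 0.0226, with overlapping groups. Their part in the class II differences was not tested.

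Factors listed for the class II promoters, which include repressive ones as well as partners of CIITA, fell more often than they rose. Of 13 such genes, 6 fell and 2 rose, with a median of -0.082. PRDM1 and EZH2, which act in repression, are among the 6 falls. The counts depended on the scaling and the probe sets: 10 fell and 1 rose with hybridization centring, 8 fell and 1 rose with poly-A centring, and 3 of 12 fell and 2 rose without _x_at and _s_at probe sets. RFXAP and RFXANK, the partners of RFX5, stood at -0.082 (SE 0.06, adjusted p = 0.301 in limma) and 0.074 (SE 0.04, adjusted p = 0.134), and neither passed the test. PRDM1, a repressor of CIITA in plasma cells, fell (-0.46, SE 0.04, adjusted p = 7.19e-05 in limma). EZH2, the methyltransferase of a repressive histone mark, fell (-0.24), as did the acetyltransferase CREBBP (-0.23), though not without its _x_at and _s_at probe sets (-0.06). SMARCA4, the motor of a chromatin remodeller that CIITA expression requires, rose by 0.31 (SE 0.04, adjusted p = 2.24e-04 in limma), and the acetyltransferase KAT2B rose by 0.22, a call lost under either spike-in centring (0.056 and 0.13) and with the brightest signal class (0.039). NFYB (-0.029), a subunit of NF-Y, and the acetyltransferase EP300 (0.0064) did not pass the test.

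Along the route from interferon gamma to CIITA, 3 of 10 measured genes rose and 4 fell, with a median of -0.026. Under hybridization centring 1 rose and 6 fell. The kinases that sit on the receptor, JAK1 and JAK2, rose by 0.38 (SE 0.04, adjusted p = 1.65e-04 in limma) and 0.29 (SE 0.06, adjusted p = 0.00584). The receptor chains moved apart: IFNGR1, which binds the ligand, fell (-0.30, SE 0.04), and IFNGR2 rose by 0.19, a call lost under either spike-in centring (0.023 and 0.093). The call of JAK2 was lost (0.12) when arrays were centred on hybridization spike-ins. IRF1, a factor that binds the interferon-responsive CIITA promoter, fell (-0.24, SE 0.04, adjusted p = 0.00198 in limma). Its arrays were -0.086, -0.089 and -0.19 in knockdown cells, against 0.13, 0.12 and 0.10 in control cells. PTPN2, a phosphatase that dampens this signalling, fell (-0.48, SE 0.05). The feedback inhibitor SOCS1 (-0.066) and IFNG itself (0.015), whose only probe set was of the low class, did not pass the test.

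Genes that supply peptide to class II molecules or turn them over rose more often than they fell. Of 13 measured, 7 rose and 1 fell, with a median of 0.28. Falls were more numerous in other settings: 6 rose and 5 fell with hybridization centring, 7 rose and 4 fell with poly-A centring, 7 rose and 3 fell with array weights, and 7 rose and 2 fell without knockdown replicate 1. The lysosomal protease CTSF rose by 0.97 (SE 0.05, adjusted p = 4.04e-06 in limma), CTSD by 0.59 (SE 0.04) and SPPL2A, the intramembrane protease that removes the last stub of CD74 from the membrane, by 0.56 (SE 0.04, adjusted p = 1.64e-05). CTSS, the protease that trims CD74 in professional antigen-presenting cells, fell (-0.25, SE 0.04, adjusted p = 6.23e-04 in limma). Its arrays were -0.11, -0.11 and -0.14 in knockdown cells, against 0.17, 0.13 and 0.11 in control cells. IFI30, a thiol reductase of endosomes, stood at 0.0046 and MARCHF8, a ligase that can remove class II molecules from the surface, at 0.062, and neither passed the test. Among 6 partners of CD74 and ligands of class II molecules, 3 fell, and all 6 differences were below 0, from -0.79 to -0.012. The number that fell was 5 with hybridization centring, and 1 with the largest-variance probe set or without control replicate 1. CD44, the signalling partner of CD74 on the cell surface, fell (-0.79, SE 0.03, adjusted p = 1.73e-06 in limma), as did CXCR4 (-0.19) and LAG3 (-0.21). The call of CXCR4 was lost without knockdown replicate 3 (-0.15) or control replicate 1 (-0.16), with the brightest signal class (-0.20), without _x_at and _s_at probe sets (-0.20) and with the largest-variance one (-0.096). That of LAG3 was lost without knockdown replicate 2 (-0.23), without control replicate 1, 2 or 3 (-0.22, -0.22 and -0.20) and with the largest-variance probe set (-0.16). MIF, the cytokine that binds CD74, stood at -0.058 and CD4 at -0.012, and neither passed the test.

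**Figure D4:**
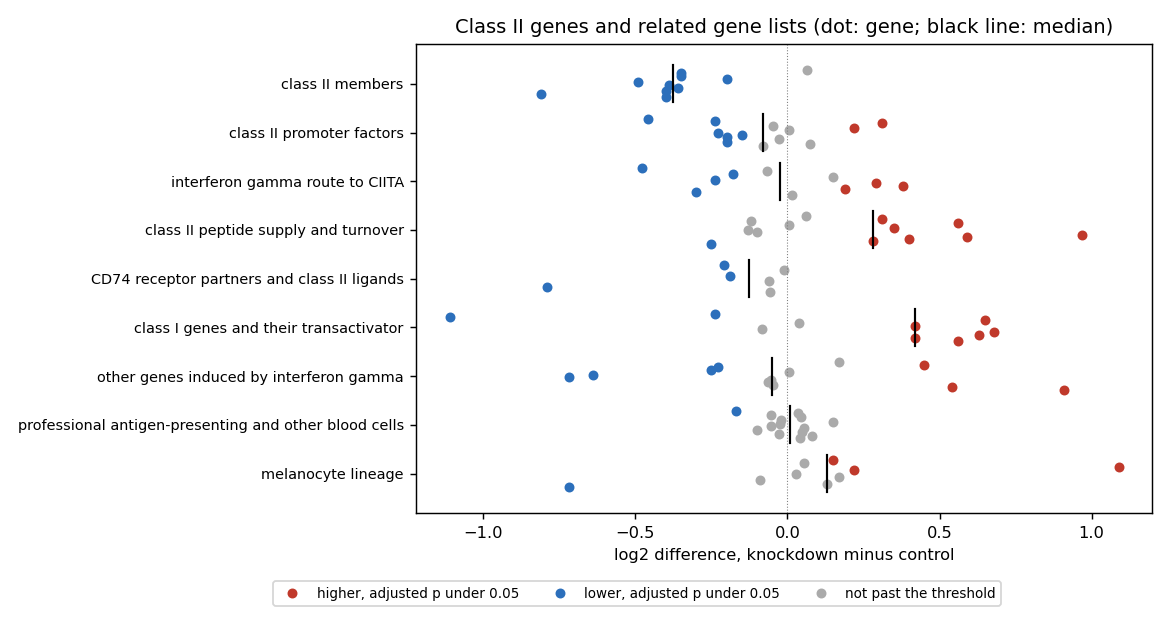
Log2 difference, knockdown minus control (horizontal axis), of the 10 class II genes and regulators and of the genes of 8 related lists; red and blue dots passed an adjusted p of 0.05 in limma and grey dots did not, and black lines are medians. The median is -0.38 for the class II set, 0.42 for class I genes and 0.28 for peptide supply and turnover.

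Class I genes, which share parts of the promoter machinery, had the opposite sign in most cases. Of 10 measured, 6 rose and 2 fell, with a median of 0.42. Without _x_at and _s_at probe sets only 7 had a value, of which 4 rose and 2 fell. NLRC5, the class I counterpart of CIITA, had 0.24, 0.32 and 0.32 in knockdown arrays, against -0.27, -0.29 and -0.22 in control arrays, a rise of 0.56 (SE 0.04, adjusted p = 1.91e-05 in limma), next to -0.35 for CIITA. The NLRC5 rise was 0.21 without _x_at and _s_at probe sets and 0.91 with the largest-variance probe set, and passed the test in both. HLA-C rose by 0.68, TAP1 by 0.65 and HLA-B by 0.63, the last of which was 0.15 and not called without _x_at and _s_at probe sets, while TAP2 fell (-1.11, SE 0.05, adjusted p = 2.52e-06 in limma), as did TAPBP (-0.24). HLA-E (-0.083) and HLA-G (0.037) did not pass the test. Of 12 other genes that interferon gamma induces, 3 rose and 4 fell, with a median of -0.051, and 7 fell under hybridization centring. The guanylate-binding proteins GBP1 and GBP2 rose by 0.91 and 0.54 and the immunoproteasome subunit PSMB8 by 0.45. The chemokines CXCL10 and CXCL11 fell (-0.72 and -0.64), as did the tryptophanyl-tRNA synthetase WARS1 (-0.25), and GBP4 (-0.048) and IDO1 (0.0036) did not pass the test. For the named genes of this list that passed, adjusted p-values lay between 9.25e-06 for GBP1 and 4.79e-04 for WARS1 in limma.

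Few markers of professional antigen-presenting and other blood cells passed the test under the deposited scaling. Of 14 measured, 0 rose in limma (0 also at an unadjusted p under 0.05) and 1 fell, the receptor CD40 (-0.17, SE 0.04, adjusted p = 0.012), with a median of 0.0067. Summed over the list, knockdown arrays lay between -0.18 and 0.063 and control arrays between -0.34 and 0.16, so the groups overlapped. With hybridization centring 6 fell and with poly-A centring 5, next to 9196 and 6297 of all 18132 genes. With the largest-variance probe set 3 fell and 2 rose, and 1 rose with array weights or without control replicate 2. AIF1 (-0.025) and CD1C (-0.022) did not pass the test. Of 9 melanocyte markers 3 rose and 1 fell, with a median of 0.13, and 1 rose and 2 fell under hybridization centring. S100B rose by 1.09, TYRP1 by 0.22 and PAX3 by 0.15, MITF fell (-0.72), and TYR (0.027) and S100A1 (0.053) did not pass the test. TYRP1 (0.056) lost its call with hybridization spike-in centring, and PAX3 lost its call under either spike-in centring (-0.013 and 0.056). Summed over the list, knockdown arrays lay between 0.29 and 0.65 and control arrays between -0.77 and -0.14. Their part in the class II differences was not tested.

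The genes whose values over the 6 arrays lay nearest to those of HLA-DRA were RAD21, a cohesin subunit, NAP1L1, a histone chaperone, and SMC4, a condensin subunit, at Euclidean distances of 0.0432, 0.0517 and 0.055 on the log2 scale. Each of the 3 had a difference of -0.41. Those nearest to CD74 were the phosphatase PTPN12, the glycogen phosphorylase PYGB and the ubiquitin-conjugating enzyme UBE2G2, at distances of 0.035, 0.0364 and 0.0368, with differences of -0.33, -0.36 and -0.35. The pattern of 3 arrays against 3 is shared by many of the 3378 genes that were called lower, so a small distance says only that the size of the difference was alike.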

How the data were processed

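Total RNA of A375 cells was measured on 6 Affymetrix arrays, 3 of UBE2S knockdown and 3 of control cells. The authors used limma, RMA and affy, per the submitters' processing notes, which give neither versions nor order. The base of the deposited log values is not stated, and they were read as log2 because RMA gives log2. The centring is not described either. RMA equalizes the distributions of the arrays, and a shift of the whole transcriptome is removed with them. In the deposited log2 table the median of each probe set over the 6 arrays was 0 (largest absolute median 4.85e-07), so levels are not held. Of 49395 probe sets 102 were array controls, 44988 of the others had 1 symbol and 0 values were missing. No 2 arrays were copies (replicate pairs differed with an SD of at least 0.125).

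Gene values are means of all probe sets with 1 symbol. The groups were compared in limma 3.58.1 (lmFit, eBayes; R 4.3.3) over all 18132 genes or 49293 probe sets, Benjamini-Hochberg adjusted, two-sided, at 0.05, after a test on simulated data. Standard errors are those of this fit. The members, lists and tests were chosen with earlier results of these data known. Named are every member, UBE2S, up to 3 rises and 3 falls and up to 2 genes not called per list, and a preset panel (1 of its genes is not analysed here). Alternatives were other probe set choices, scalings, variance models, the replicate block and leaving out each array. The removal of _x_at and _s_at probe sets, and of each probe set in turn, was added after seeing the data. A 25th-percentile filter needs levels and was not run.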

Additional observations from a re-analysis of the deposited data

How the results depend on the processing

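The 9 class II genes and regulators that were called lower were lower in sign under every alternative that gave them a value, 8 or 9 of them stayed called with any array left out (8 also with array weights or the robust variance model), and HLA-DOB was the gene that lost its call there. Without _x_at and _s_at probe sets 6 were called. A 25th-percentile filter needs levels and was not run. No member was called higher under any alternative. The replicate block left 9 genes and 34 probe sets lower and gave 20 falls and 21 rises among 64 related genes, the same numbers as without it. HLA-DQB1 lost its call under the block (-0.13, adjusted p = 0.0674 in limma). Deviations of same-numbered arrays correlated at -0.0303, -0.0165 and -0.105, and those of differently numbered ones at -0.0693 to 0.0963. These values cannot show whether same-numbered arrays shared a culture or a day. Counts over all and related genes moved most with the scaling. With arrays centred on hybridization and on poly-A spike-ins 9196 and 6297 of all genes were lower, against 3378 with the deposited scaling. The numbers higher were 1764 and 2486, against 3888. Of the 64 related genes 36 were lower with hybridization centring, against 20. Both centrings lower every difference, so they could hardly remove a fall or add a rise among the class II genes and regulators. That 9 of them stayed called lower is therefore no test of these falls. With any array left out, 2873 to 3109 genes were lower and 3449 to 3568 higher. Signs turned for genes near 0. With hybridization centring RFX5 was at -0.10, RFXANK at -0.094, EP300 at -0.16, IFNG at -0.15, IFI30 at -0.16, MARCHF8 at -0.11, HLA-G at -0.13, IDO1 at -0.16, TYR at -0.14, S100A1 at -0.11, PAX3 at -0.013 and HLA-DPB2 at -0.018. With poly-A centring RFX5 was at -0.033, RFXANK at -0.024, EP300 at -0.091, IFNG at -0.083, IFI30 at -0.093, MARCHF8 at -0.036, HLA-G at -0.061, IDO1 at -0.094, TYR at -0.071 and S100A1 at -0.045. EP300 stood at -0.027 with array weights. The largest-variance probe set gave 0.023 for CD4, 0.0092 for GBP4, 0.047 for CD1C and -0.075 for TYR, and the brightest class gave 0.047 for CD1C and -0.075 for TYR. Without _x_at and _s_at probe sets AIF1 was at 0.052. Leaving out each array gave ranges across 0 for NFYB (-0.061 to 0.0027), EP300 (-0.06 to 0.04), IFNG (-0.013 to 0.056), IFI30 (-0.023 to 0.043), CD4 (-0.085 to 0.048), GBP4 (-0.18 to 0.025), IDO1 (-0.024 to 0.034), AIF1 (-0.061 to 0.03), CD1C (-0.09 to 0.033) and TYR (-0.0065 to 0.075). The cause of these turns was not tested. Centred values hold no signal over background, so a difference near 0 in a low-class probe set may lie under what the array can measure.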
